A study of Mus musculus with 15 samples.

Results

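Ribosome biogenesis and nucleolar genes were examined in germinal centre B cells of mouse spleen. The list was chosen by gene name and holds 48 genes. Of these, 47 had a probe set with a single gene symbol and are described here, among 19938 genes measured in all. Noc2l was not matched to such a probe set and is not analysed here. By role, 10 measured genes encode nucleolar proteins and parts of small nucleolar RNPs (snoRNPs), and 3 encode subunits of RNA polymerase I. A further 18 act in assembly of the small subunit and 12 in that of the large subunit. The remaining genes are a pair of other nucleolar factors, Ddx21 and Mybbp1a, and the polyamine enzymes Odc1 and Srm.

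The 15 arrays came from female mice of SWHEL background, whose B cells carry a knocked-in receptor for hen egg lysozyme. CD45.1 B cells were transferred into C57BL/6J recipients (CD45.2), which were immunized with sheep red blood cells carrying the lysozyme mutant HEL3x, and spleen cells were sorted on day 10. All sorted cells were CD45.1+, CD45.2-, IgG1+ and CD38 low. Light zone (LZ) cells were sorted as CD86 high, CXCR4 low cells, and dark zone (DZ) cells as CXCR4 high, CD86 low cells. Cells of each zone were sorted again as having high or low affinity, which gave 3 LZ-high arrays (replicates 1, 2 and 4), 4 LZ-low, 4 DZ-high and 4 DZ-low arrays. No group was untreated or unimmunized, and the labels do not say whether each array came from separate mice, so a p-value here weighs only the spread between these arrays. Array descriptions carry a code, written here as A to D. Code B has a different written form in LZ and in DZ arrays and was merged, and no LZ-high array carries code D.

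Ribosomes are made in the nucleolus. RNA polymerase I transcribes the ribosomal RNA precursor there. SnoRNPs modify the precursor, and large processing complexes cut it and fold it with ribosomal proteins into the small and the large subunit. In germinal centres, B cells that receive help from T cells in the light zone express Myc, a transcription factor whose targets include many of these genes, and grow before they divide in the dark zone.

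The values were levels on the log2 scale, as the authors deposited them, and a difference of 1 is a doubling. Levels of different genes are not compared, since each probe set has its own brightness. The B cell markers averaged between 10.01 and 10.56 over the arrays and the germinal centre markers between 9.62 and 10.11. No array held another sorted cell type to compare with, so these levels do not test the labelled cell type. Set against the other LZ-low arrays, LZ-low replicate 3 was lower by at least 1 in 3 of 6 germinal centre markers. The LZ markers averaged between 8.65 and 9.23 in LZ arrays and between 7.55 and 8.31 in DZ arrays, without overlap. The DZ markers did overlap, averaging between 6.99 and 8.33 in LZ arrays and between 7.83 and 8.96 in DZ arrays, with DZ-low replicate 3 the lowest DZ array. Both low-affinity arrays of code D (LZ-low replicate 3 and DZ-low replicate 3) stood apart from the others in markers of other cells. All 11 neutrophil markers were higher in each of them than in the other arrays of its group, 10 of 11 by at least 1 in both. Their mean level was 9.29 in LZ-low replicate 3 and 7.98 in DZ-low replicate 3, and between 4.99 and 6.76 in the other 13 arrays. T cell, myeloid and NK cell markers averaged 6.93, 7.64 and 6.70 in LZ-low replicate 3 and 5.57, 6.83 and 5.85 in DZ-low replicate 3, each the highest of its group. LZ-low replicate 4 was also above the first 2 LZ-low arrays, at 6.07 for T cell and 6.41 for myeloid markers against 4.99 and 5.14 and against 5.32 and 5.65, and DZ-low replicate 4 had 5.57 for T cell markers. Leaving out code D therefore leaves some of this signal in the low-affinity groups. In LZ-high replicate 4, 839 of all 19938 genes lay more than 1 below their own mean over the arrays. That count was 35 and 21 in LZ-high replicates 1 and 2, 1063 in LZ-low replicate 3 and 723 in DZ-low replicate 3. Of the 47 genes, 1 lay so low in LZ-high replicate 4. The part that RNA of other cells had in the values below was not tested. Many counts and medians below, such as those of role groups and promoter groups, are over all arrays only. Median differences of the 47 genes, in comparisons that use them, are given with and without both low-affinity arrays of code D. Some other counts and single values are also given without both of these arrays. In the pathway lists, "without code D" means without these 2 arrays.

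Across groups, the highest mean of most ribosome biogenesis genes lay in LZ-high cells. This held for 33 of 47 genes (70.2%), while 26.9% of all genes had their highest mean there. The lowest mean lay in LZ-low cells for 21 genes, in DZ-low for 16, in DZ-high for 7 and in LZ-high for 3, against 28.2%, 20.9%, 22.6% and 28.3% of all genes. LZ-low replicate 3 was the lowest single array of 13 genes and DZ-low replicate 3 that of 7. Without these arrays the highest mean lay in LZ-high cells for 34 genes, where 28.4% of all genes had theirs. The lowest then lay in LZ-low for 20, in DZ-low for 17, in DZ-high for 8 and in LZ-high for 2. The shares of all genes were 31.3%, 25.4%, 19.9% and 23.4%. Each gene was also set against its own mean over the 15 arrays. The median deviation of the 47 genes was 0.35, 0.17 and 0.15 in LZ-high replicates 1, 2 and 4. It lay between -0.12 and 0.05 in LZ-low arrays, between -0.10 and 0.14 in DZ-high arrays and between -0.33 and 0.16 in DZ-low arrays. In these bulk samples, fewer cells with high levels and less RNA per cell cannot be told apart.

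**Figure D1:**
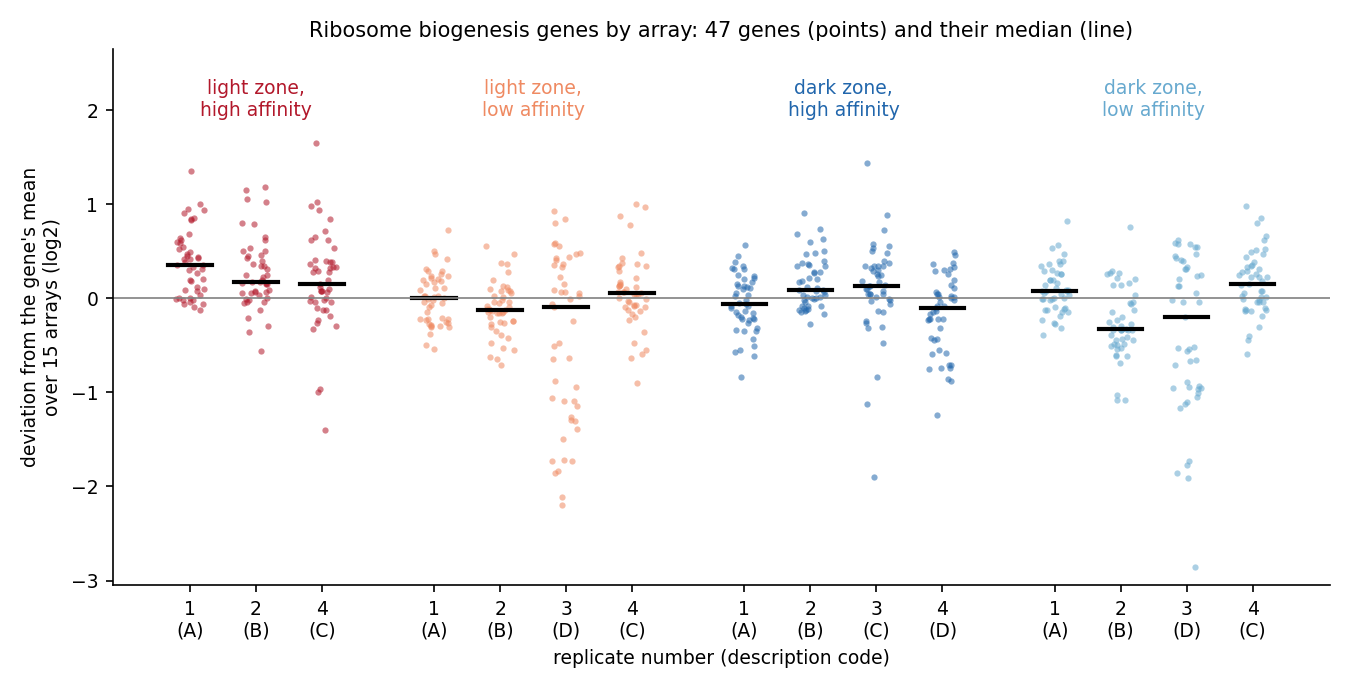
Deviation of each of 47 ribosome biogenesis genes from its own mean over 15 arrays (vertical axis, log2), by array, with the replicate number and the description code on the horizontal axis. Points are genes and black lines are their medians, which were 0.35, 0.17 and 0.15 in LZ-high arrays, and the genes spread most in replicate 3 of LZ-low and of DZ-low.

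The nucleolar proteins and snoRNP genes are given first, with levels in order of replicate number. Ncl, encoding nucleolin, an abundant nucleolar protein that binds ribosomal RNA precursor, had 11.46, 11.27 and 11.37 in LZ-high arrays, against 11.22, 11.12, 9.74 and 11.17 in LZ-low arrays. In DZ-high arrays it had 11.37, 11.13, 10.74 and 11.19, against 11.30, 11.19, 10.08 and 11.36 in DZ-low arrays. LZ-high lay above LZ-low in every array, but without the low replicate 3 the gap was small, and the DZ groups overlapped. Npm1, encoding the nucleolar chaperone nucleophosmin, had 11.22, 11.12 and 10.99 in LZ-high arrays, against 11.18, 11, 9.57 and 11.08 in LZ-low arrays. In DZ-high arrays it had 11.11, 10.93, 10.84 and 10.93, against 11.17, 11.14, 9.82 and 10.92 in DZ-low arrays. Apart from replicate 3 of both low-affinity groups, Npm1 differed little between arrays.

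Fbl encodes fibrillarin, the methyltransferase of box C/D snoRNPs. Its levels were 11.49, 11.75 and 11.69 in LZ-high arrays, against 11.30, 11.03, 11.34 and 11.34 in LZ-low arrays, with no overlap. They were 11.13, 11.57, 11.42 and 10.41 in DZ-high arrays, against 11.29, 10.86, 11.25 and 11.47 in DZ-low arrays, which overlapped. Nop56, a core protein of the same snoRNPs, had 10.35, 9.93 and 10.90 in LZ-high arrays, against 9.92, 9.62, 9.90 and 10.45 in LZ-low arrays. In DZ-high arrays Nop56 had 9.79, 9.84, 10.54 and 10.07, against 9.86, 9.44, 9.02 and 9.86 in DZ-low arrays. Both pairs of groups overlapped, and the code C array was the highest of LZ-high, LZ-low and DZ-high cells. Dkc1 encodes dyskerin, the pseudouridine synthase of box H/ACA snoRNPs. It had 9.12, 9.30 and 8.0 in LZ-high arrays, against 8.41, 8.68, 6.01 and 7.22 in LZ-low arrays. In DZ-high arrays Dkc1 had 8.36, 8.86, 7.0 and 8.45, against 8.65, 8.39, 7.17 and 8.20 in DZ-low arrays. The code C array had less Dkc1 than the code A and B arrays in every group, and replicate 3 was the lowest array of both low-affinity groups.

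Among RNA polymerase I genes, Polr1b encodes the second-largest subunit of the enzyme. It had 7.10, 6.51 and 6.16 in LZ-high arrays, against 6.25, 6.13, 6.49 and 5.71 in LZ-low arrays. Its DZ-high levels were 6.29, 6.25, 6.51 and 6.22, against 6.25, 5.96, 6.24 and 5.86 in DZ-low arrays. Replicate 1 of LZ-high was the highest array, and both pairs of groups overlapped.

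Of the small subunit genes, Heatr1, a large scaffold protein of the complex that processes the small-subunit RNA, had 9.61, 9.48 and 9.49 in LZ-high arrays, against 9.30, 9.14, 8.44 and 9.26 in LZ-low arrays. It had 8.95, 9.20, 9.37 and 8.86 in DZ-high arrays, against 9.14, 8.89, 7.92 and 9.24 in DZ-low arrays. All LZ-high arrays lay above every other array for Heatr1. Wdr43, a WD-repeat protein of the same complex, had 10.99, 10.68 and 10.50 in LZ-high arrays, against 10.68, 10.64, 8.81 and 10.59 in LZ-low arrays. In DZ-high arrays it had 10.73, 10.87, 10.26 and 10.89, against 10.72, 10.74, 9.86 and 10.91 in DZ-low arrays. Both pairs of groups overlapped for Wdr43, and replicate 3 was its lowest array in LZ-low and in DZ-low cells. Bysl, which acts in late maturation of the small subunit, had another pattern. It had 7.82, 7.92 and 8.27 in LZ-high arrays, against 7.38, 7.35, 7.95 and 8.01 in LZ-low arrays. Its DZ-high levels were 7.04, 7.78, 9.32 and 7.29, against 7.56, 7.34, 8.33 and 8.86 in DZ-low arrays. Bysl was highest in arrays of code C in every group, and it was not low in the low-affinity arrays of code D.

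Among large subunit genes, Nop16 had 9.62, 9.65 and 10.33 in LZ-high arrays, against 9.08, 8.60, 9.73 and 9.11 in LZ-low arrays. It had 8.99, 9.16, 9.49 and 8.06 in DZ-high arrays, against 9.45, 8.81, 9.73 and 9.78 in DZ-low arrays. Every LZ-high array lay above every DZ-high array for Nop16. Gnl3, encoding the nucleolar GTPase nucleostemin, had 9.74, 9.41 and 8.37 in LZ-high arrays, against 9.12, 8.75, 6.19 and 8.52 in LZ-low arrays. In DZ-high arrays it had 8.78, 9.07, 7.92 and 8.70, against 8.76, 8.65, 5.54 and 8.35 in DZ-low arrays. Gnl3 had the widest range of the 47 genes, 4.20 between its highest and lowest array. Bop1, part of a complex with Pes1 and Wdr12 that matures the large subunit, had 6.87, 6.97 and 6.98 in LZ-high arrays, against 6.66, 6.77, 7.45 and 6.93 in LZ-low arrays. Its DZ-high levels were 6.88, 6.88, 7.47 and 6.82, against 6.96, 6.64, 7.37 and 6.83 in DZ-low arrays. Bop1 groups overlapped throughout, and its high arrays included the ones in which Gnl3 was lowest.

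Ddx21, an RNA helicase that acts in transcription and processing of ribosomal RNA, had 9.59, 9.24 and 9.58 in LZ-high arrays, against 9.14, 9.13, 8.17 and 9.39 in LZ-low arrays. In DZ-high arrays Ddx21 had 9.11, 9.39, 8.99 and 8.97, against 9.13, 8.80, 7.93 and 9.19 in DZ-low arrays. Ddx21 overlapped between the groups of each zone and was likewise lowest in replicate 3 of both low-affinity groups. Odc1 encodes ornithine decarboxylase, the rate-limiting enzyme of polyamine synthesis. It had 10.81, 10.86 and 11.17 in LZ-high arrays, against 10.66, 10.56, 10.89 and 10.96 in LZ-low arrays. In DZ-high arrays Odc1 had 10.59, 10.69, 10.85 and 10.79, against 10.69, 10.48, 11.04 and 11.05 in DZ-low arrays. Its range over the arrays, 0.69, was the smallest of the 47 genes. Srm, encoding spermidine synthase, had 7.91, 7.78 and 7.5 in LZ-high arrays, against 7.12, 6.87, 8.26 and 7.42 in LZ-low arrays. In DZ-high arrays Srm had 7.36, 7.64, 7.5 and 7.34, against 7.03, 6.39, 7.55 and 7.65 in DZ-low arrays. In both low-affinity groups, replicate 3 was the highest or second-highest array for both enzymes.

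**Figure D2:**
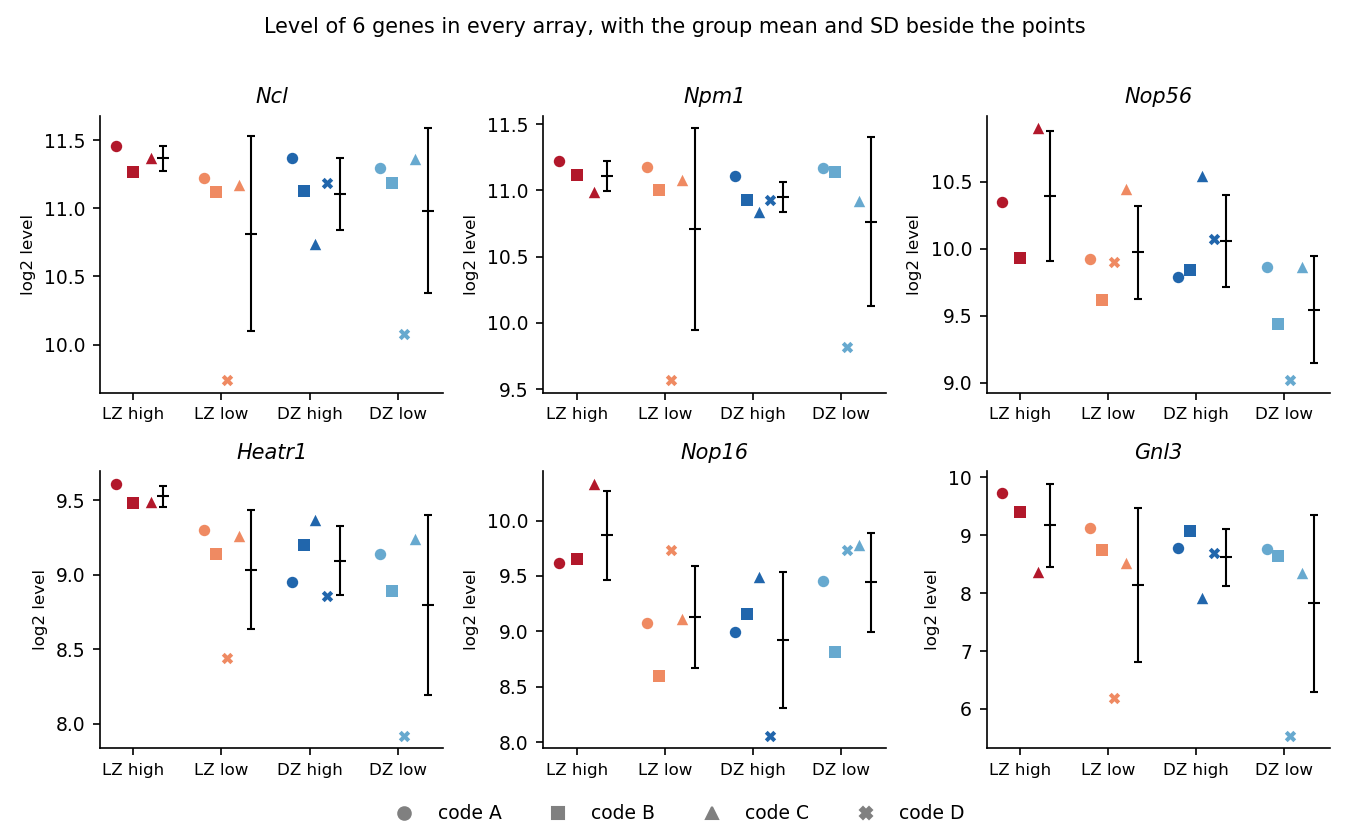
Log2 level (vertical axis) of Ncl, Npm1, Nop56, Heatr1, Nop16 and Gnl3 in every array of the 4 groups (horizontal axis), with marker shapes for description codes A to D and the group mean and SD beside the points. Ncl, Npm1 and Gnl3 were lowest in the code D arrays of the low-affinity groups, and Heatr1 was higher in each LZ-high array than in any other array.

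The first comparison set high-affinity against low-affinity cells within the light zone, and asked how the machinery that makes ribosomes differed with the affinity of the receptor. The ribosome biogenesis genes were mostly higher in LZ-high cells. The log2 difference was above 0 for 39 of 47 genes, against 49.9% of all genes, with a median of 0.44, against -0.00035 over all genes. No gene passed on its own. In limma, fitted over all genes with Benjamini-Hochberg adjustment, 0 of 47 had an adjusted p under 0.05, and 0 of 19938 genes did (0%). At an unadjusted p under 0.05, 2 of the 47 were higher and 0 lower, where 1.64% of all genes were higher and 2.36% lower. With the description code as a replicate block these were 11 higher and 0 lower, where 2.12% of all genes were higher and 2.61% lower, and the lowest adjusted p of the 47 was 0.897.

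The nucleolar and snoRNP genes had a median difference of 0.43, with 9 of 10 above 0. Dkc1 was 1.23 ± 0.61 higher (SE, as for every difference given with ±), or 0.70 without the low-affinity arrays of code D. Nolc1, whose product escorts snoRNPs, averaged 9.21 in LZ-high and 8.43 in LZ-low cells, 0.78 ± 0.32 higher (unadjusted p = 0.031, adjusted p = 0.9996 in limma). Gar1, a core protein of box H/ACA snoRNPs, was 0.45 ± 0.23 higher. Neither Nolc1 nor Gar1 overlapped between the groups, and both were higher in 3 of 3 pairs of arrays of the same code. Over all arrays, large subunit genes had the highest median of the role groups, 0.55, with 11 of 12 above 0. Nop16 was 0.73 ± 0.34 higher, Wdr12 0.73 ± 0.34 and Grwd1, a WD-repeat protein that also binds histones, 0.56 ± 0.27. Without the low-affinity arrays of code D they were 0.93, 0.49 and 0.62 higher. Bop1 was the 1 gene of this role below 0, at -0.01 ± 0.21, although it was higher in 3 of 3 pairs of a code. LZ-low replicate 3, which has no LZ-high partner of its code, was 0.66 above the other LZ-low arrays for Bop1.

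The small subunit genes were more divided, with 14 of 18 above 0 and a median of 0.32. Wdr75, a WD-repeat protein of the processing complex, averaged 9.45 in LZ-high and 8.43 in LZ-low cells, 1.02 ± 0.36 higher (unadjusted p = 0.014, adjusted p = 0.9996 in limma). Nop14 was 1.01 ± 0.54 higher and Ltv1, which acts in late maturation, 0.65 ± 0.34 higher. Without the low-affinity arrays of code D these were 0.58, 0.56 and 0.40. Over all arrays, Nob1, the endonuclease that makes the last cut of the small-subunit RNA, had the lowest difference of the 47 genes, -0.46 ± 0.29. LZ-low replicate 3 was 0.65 above the other LZ-low arrays for Nob1. Its pairs of codes A, B and C differed by 0.31, -0.28 and -0.92. Of the polymerase genes, Polr1b was 0.44 ± 0.21 higher. Polr1a, the largest subunit, differed by 0.05 ± 0.26 and Polr1c, a subunit shared with RNA polymerase III, by -0.13 ± 0.27. Both of these had the opposite sign without the low-affinity arrays of code D, -0.15 and 0.09. Ddx21 was 0.51 ± 0.31 higher, or 0.25 without those arrays. Mybbp1a, a nucleolar protein that binds MYB, differed by -0.14 ± 0.42, or by -0.04 without them. Srm was 0.31 ± 0.32 higher and Odc1 0.18 ± 0.16 higher, and Srm was 0.60 higher without those arrays.

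In 10 of the 47 genes the LZ-high and LZ-low arrays did not overlap, LZ-high being higher, where 2.26% of all genes did so. These were Ncl, Nolc1, Fbl, Gar1, Heatr1, Wdr75, Nop14, Wdr12, Rrs1 and Grwd1. Within a code, 46 of 47 genes were higher in LZ-high cells of code A, 44 in code B and 31 in code C, with medians of 0.35, 0.35 and 0.14. All genes had medians of -0.0013, -0.0056 and 0.10 in the same pairs, and the code C median of the whole array was thus near that of the members. In 28 genes LZ-high was higher in 3 of 3 pairs, where 15.7% of all genes were, and 0 were lower in 3 of 3, where 12% were. Without both low-affinity arrays of code D, whose neutrophil marker levels are given above, 41 of 47 genes were above 0, with a median of 0.30. Of all genes, 11135 of 19938 were then above 0, with a median of 0.024.

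**Figure D3:**
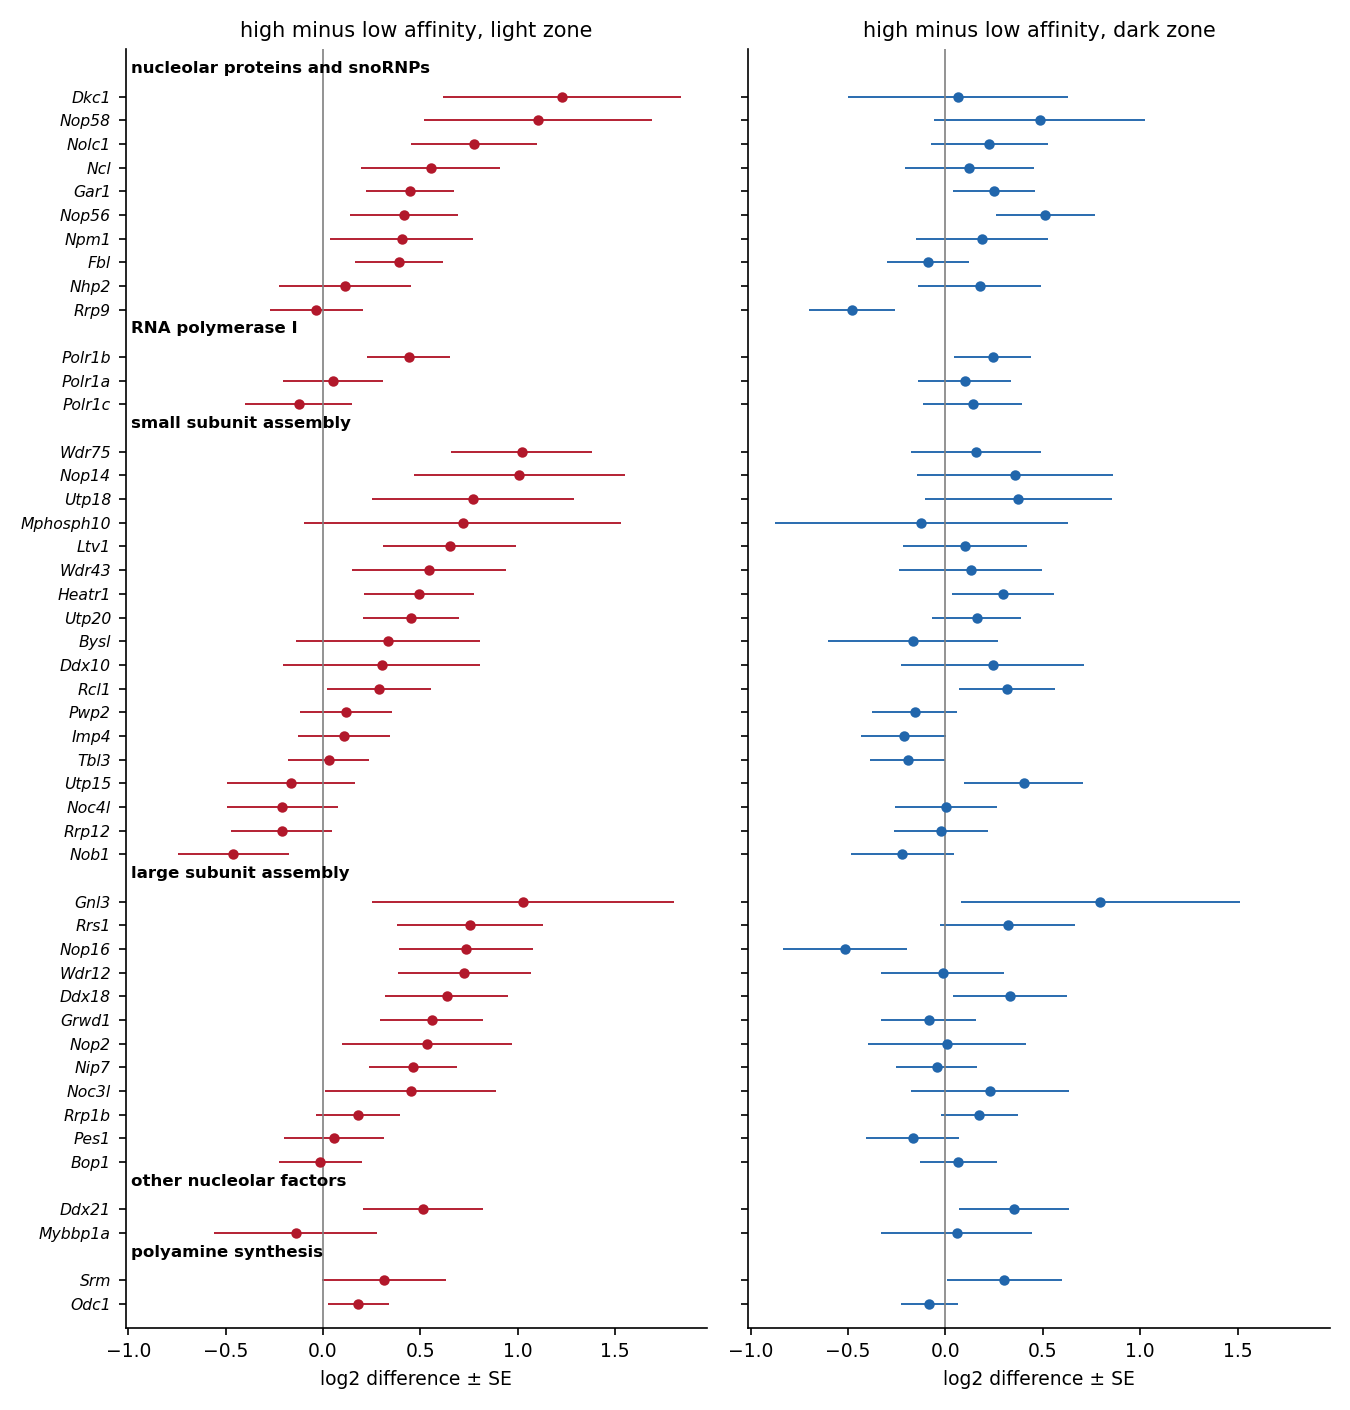
Log2 difference between high- and low-affinity cells (horizontal axis, with its SE in the limma fit) for each of 47 genes, grouped by role, in the light zone (left) and the dark zone (right). In the light zone 39 of 47 points lie above 0 and in the dark zone 32 of 47.

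Within the dark zone the same comparison gave differences nearer 0 and of both signs. Plasma cell markers and B cell markers differed beside them. All 8 plasma cell markers were above 0 between DZ-high and DZ-low cells, with a median of 0.36, and their mean level lay between 7.11 and 7.31 in DZ-high and between 6.72 and 7.01 in DZ-low arrays. All 7 B cell markers were below 0, with a median of -0.17. Between LZ-high and LZ-low cells, 7 of 8 plasma cell markers were above 0, with a median of 0.08, and 2 of 7 B cell markers, with a median of -0.24. Their part in the affinity differences was not tested. Between DZ-high and DZ-low cells, 32 of 47 genes were above 0, against 50.4% of all genes, with a median of 0.13, against 0.0015 over all genes. In limma 0 of 47 passed after adjustment, and 0 of all genes (0%). At an unadjusted p under 0.05, 0 were higher and 1 lower, where 0.757% and 0.848% of all genes were. With the description code as a replicate block there was 1 in each direction, where 1.36% of all genes were higher and 1.47% lower, and the lowest adjusted p of the 47 was 0.9997. The lower gene was Rrp9, part of the snoRNP that guides early cleavage of the precursor, at -0.48 ± 0.22. Its pairs of codes A to D differed by -0.37, 0.01, -0.29 and -1.28, so code D held the largest. Rrp9 was at -0.36 without the low-affinity arrays of code D. Nop56 was 0.51 ± 0.26 higher, in 3 of 4 pairs of a code, and Gar1 0.25 ± 0.21 higher. The 3 polymerase genes were all above 0, Polr1b by 0.24 ± 0.20, Polr1c by 0.14 ± 0.25 and Polr1a by 0.10 ± 0.24. Of the small subunit genes, 11 of 18 lay above 0. Utp15 was 0.40 ± 0.30, Rcl1 0.32 ± 0.25 and Heatr1 0.30 ± 0.26 higher. Of the large subunit genes, 7 of 12 did. Gnl3 was 0.80 ± 0.72 higher, or 0.03 without the low-affinity arrays of code D, and Ddx18, an RNA helicase, 0.33 ± 0.29 higher, or 0.09. Nop16 was lower by contrast, at -0.52 ± 0.32, with -0.46, 0.35, -0.29 and -1.67 in pairs of codes A to D. Ddx21 differed by 0.35 ± 0.28, Mybbp1a by 0.06 ± 0.39, Srm by 0.30 ± 0.29 and Odc1 by -0.08 ± 0.15. Without the low-affinity arrays of code D, Nop56 differed by 0.34, Heatr1 by 0.0038, Gar1 by 0.08, Ddx21 by 0.07, Polr1c by 0.39, Mybbp1a by 0.15 and Odc1 by -0.0083.

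Pairs of one code did not point the same way in the dark zone. The members' median was -0.12 in code A, 0.44 in code B, -0.05 in code C and 0.22 in code D, with 12, 43, 21 and 25 of 47 genes higher in DZ-high cells. Medians of all genes in those pairs were 0.02, 0.0012, 0.0046 and -0.07. No gene was higher in all 4 pairs, where 3.94% of all genes were, or lower in all 4, where 3.25% were. Without the low-affinity arrays of code D the median was 0.0038 and 26 of 47 genes were above 0, so most of the dark zone median rested on DZ-low replicate 3. Of all genes, 10740 of 19938 were then above 0, with a median of 0.014, so the members' count was near the share of all genes.

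**Figure D4:**
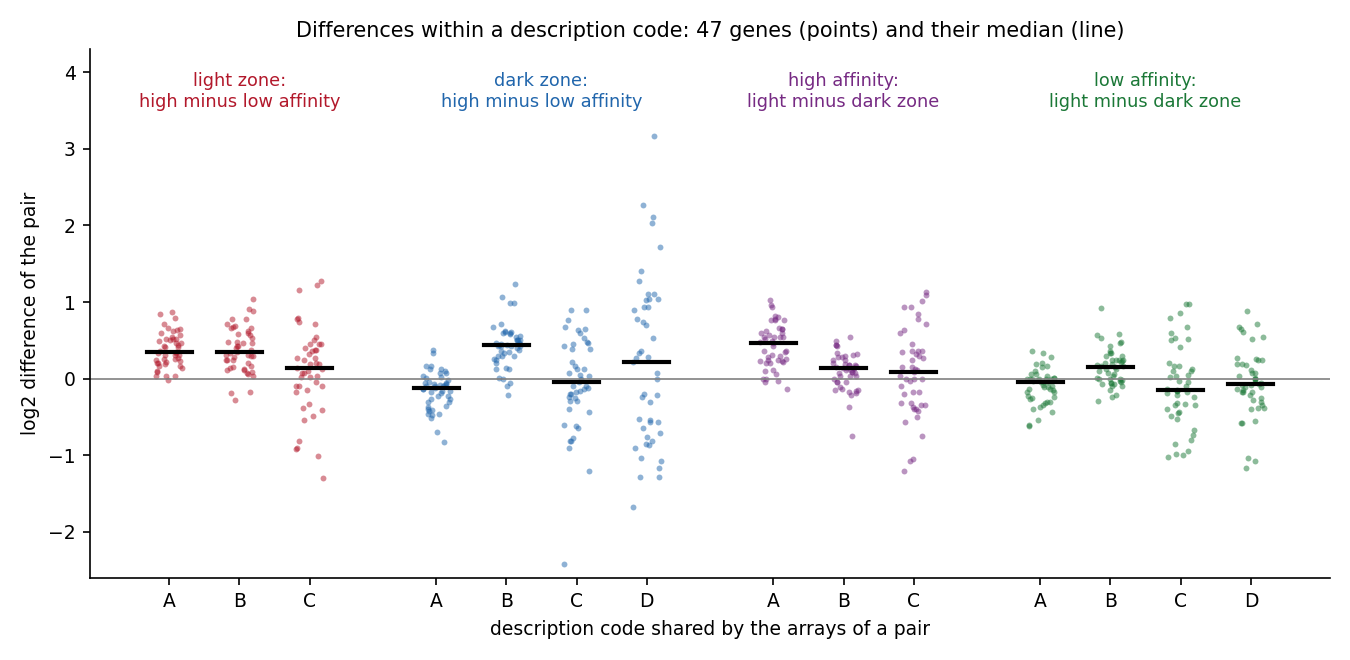
Log2 difference (vertical axis) of each of 47 genes between arrays that share a description code (horizontal axis, A to D), for affinity within each zone and for zone within each affinity, with medians as black lines. In the light zone 46 of 47 genes in code A and 44 in code B were higher in high-affinity cells, while in the dark zone the medians lie on both sides of 0.

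Over both zones, high-affinity cells had 38 of 47 genes above 0, against 50.3% of all genes, with a median of 0.30. In limma 0 of 47 passed, and 0 of all genes (0%). At an unadjusted p under 0.05, 6 were higher and 0 lower, where 1.63% of all genes were higher and 2.67% lower. With the replicate block these were 10 and 0, where 2.7% and 3.39% of all genes were, and the lowest adjusted p was 0.456. The lowest p belonged to Nop56, with 0.47 ± 0.19 and a higher level in 6 of 7 pairs, Wdr75, with 0.59 ± 0.25 and 5 of 7 pairs, and Polr1b, with 0.34 ± 0.15 and 6 of 7 pairs. With both low-affinity arrays of code D left out, Wdr75 was 0.28 higher and the median was 0.16, with 40 of 47 genes above 0. Of all genes, 11439 of 19938 were then above 0, with a median of 0.022. The interaction term asked whether the affinity difference was larger in the light zone. Its median was 0.26, with 36 of 47 genes above 0, against 49.7% of all genes. In limma 0 of 47 passed, nor did any of all genes (0%), also with the replicate block. At an unadjusted p under 0.05 the count was 1 higher, Nop16, and 0 lower, where 0.652% of all genes were higher and 0.682% lower. Nop16 had an interaction of 1.25 ± 0.47, which was positive in 3 of 3 codes. Grwd1 followed at 0.65 ± 0.36 and Wdr75 at 0.86 ± 0.49. The interaction median was 0.10 without LZ-low replicate 3, 0.40 without DZ-low replicate 3 and 0.26 without both. Within codes it was 0.48 in A, with 47 of 47 genes above 0, -0.03 in B and 0.14 in C, against -0.02, -0.02 and 0.09 for all genes.

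Light zone cells were next compared with dark zone cells. Over both affinities, 36 of 47 genes were higher in LZ cells, against 48% of all genes, with a median of 0.14. In limma 0 of 47 passed, against 31 of 19938 genes (0.155%). With the replicate block it was 0 of 47, against 90 genes (0.451%), and the lowest adjusted p of the 47 was 0.419. At an unadjusted p under 0.05, 0 were higher and 1 lower, where 2.47% and 1.91% of all genes were. With the block, 2 were higher and 1 lower, where 3.91% and 3.04% of all genes were. The lower gene was Nob1, which averaged 7.38 in LZ and 7.83 in DZ cells, a difference of -0.45 ± 0.20, and was lower in 6 of 7 pairs. Nop56 was 0.38 ± 0.19 higher, Heatr1 0.33 ± 0.19 and Gnl3 0.44 ± 0.53. These 3 were higher in 7 of 7 pairs of a code, where 2.06% of all genes were, and Imp4, at -0.06 ± 0.16, was lower in 7 of 7, where 1.81% were. All 10 nucleolar and snoRNP genes lay above 0, among them Nolc1 at 0.36 ± 0.22 and Fbl at 0.27 ± 0.16. With the replicate block 7 of these 10 did, and Ncl, Npm1 and Dkc1 were then at -0.06, -0.07 and -0.06. The polymerase genes were 0.29 ± 0.17 (Polr1a), 0.17 ± 0.15 (Polr1b) and 0.15 ± 0.19 (Polr1c) higher. Large subunit genes lay above 0 in 9 of 12 cases, with Nop16 at 0.31 ± 0.23, Rrp1b at 0.23 ± 0.15 and Nip7 at 0.19 ± 0.15. Small subunit genes were about evenly divided, 10 of 18 above 0, with Noc4l at 0.24 ± 0.19. Mybbp1a was 0.42 ± 0.29 and Ddx21 0.27 ± 0.21 higher, and Srm and Odc1 were 0.27 ± 0.22 and 0.08 ± 0.11 higher. With the replicate block the median of the 47 genes was 0.11, with 32 above 0, and over all settings between 27 and 41 lay above 0. Without the low-affinity arrays of code D the median was 0.17, with 34 of 47 genes above 0. Of all genes, 9424 of 19938 were then above 0, with a median of -0.0076.

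The zones were then compared within each affinity. Among high-affinity cells 41 of 47 genes were higher in LZ-high than in DZ-high cells, against 48.8% of all genes, with a median of 0.27. LZ-high cells have no array of code D, and with the replicate block the median was 0.18, with 38 of 47 above 0. Among low-affinity cells 20 of 47 were higher in LZ-low than in DZ-low cells, against 48.6%, with a median of -0.06. The test of the difference between these is the interaction given above, which 0 of 47 genes passed. In the high-affinity comparison limma passed 0 of 47, against 0.015% of all genes, or 0.0552% with the block. At an unadjusted p under 0.05, 2 were higher and 0 lower, where 1.48% and 1.32% of all genes were. With the block these were 5 and 0, where 2.32% and 1.75% were. Nop16 averaged 9.86 in LZ-high and 8.93 in DZ-high cells, 0.94 ± 0.34 higher, Fbl was 0.51 ± 0.23 and Nip7 0.45 ± 0.22 higher. DZ-high replicate 4, whose code has no LZ-high array, was at -1.15, -0.96 and -0.45 for these genes against the other DZ-high arrays. In pairs of codes A, B and C, Nop16 differed by 0.62, 0.49 and 0.84. Fbl differed by 0.36, 0.18 and 0.27, and Nip7 by 0.23, 0.07 and 0.71. In 5 genes, Nolc1, Heatr1, Wdr75, Nop14 and Nop16, the groups did not overlap, where 1.84% of all genes were higher without overlap. In 3 of 3 pairs of a code, 19 genes were higher, where 10.7% of all genes were, and 2 were lower, where 10.1% were. The members' median was 0.47 in code A, 0.14 in code B and 0.09 in code C, against -0.06, -0.0057 and 0.08 for all genes. In the low-affinity comparison limma again passed 0 of 47, against 0.01% of all genes, or 0.15% with the block. None had an unadjusted p under 0.05 in either direction, where 2.04% of all genes were higher and 1.48% lower. With the block there was 1 in each direction, where 3.22% and 2.31% were. In 4 of 4 pairs 6 genes were higher, where 8.53% of all genes were, and 6 were lower, where 8.81% were. Nop56 was 0.43 ± 0.26 higher in LZ-low cells (0.28 without these arrays of code D), in 4 of 4 pairs, and Utp15 0.50 ± 0.30 higher, also in 4 of 4. Wdr12 was lower in 4 of 4 pairs, at -0.43 ± 0.32. Medians within codes were -0.04, 0.15, -0.15 and -0.07. The median over groups was -0.03, with 21 of 47 above 0, when both arrays of code D were left out.

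The low-affinity arrays of code D were low in some of the genes and not in others. Set against the other LZ-low arrays, LZ-low replicate 3 was lower by at least 1 in 17 of 47 genes (36.2%), where 6.55% of all genes were. DZ-low replicate 3 was lower by at least 1 in 13 of 47 (27.7%), where 5.64% of all genes were. In both, 12 genes (25.5%) were so, where 4% of all genes were. The deepest were Gnl3, at -2.61 in the LZ-low array and -3.05 in the DZ-low array, Mphosph10, at -1.99 and -2.43, Nop58, at -1.93 and -1.97, and Nop14, at -1.80 and -2.25. Mphosph10 belongs, like Nop14, to the complex that processes the small-subunit RNA, and Nop58 is the partner of Nop56 in box C/D snoRNPs. In turn, 22 of the 47 genes (46.8%) were higher in both arrays than in the others of their group, a share near the 49.8% of all genes. Polr1c was 0.88 and 1.01 higher, Srm 1.13 and 0.53, Rrp12 1.08 and 0.36, and Bop1 0.66 and 0.56. The members' medians, -0.18 and -0.02, therefore stand for a mixture of low and high genes. DZ-high replicate 4, the high-affinity array of that code, shared little of this. Fbl was at -0.96 there, but at 0.11 and 0.05 in the LZ-low and DZ-low arrays. Mybbp1a was at -0.92 there, but at 0.40 and 0.38. The 12 genes lower by at least 1 in both low-affinity arrays were not so in this array. Ncl, Nop58, Dkc1, Nop14, Mphosph10, Noc3l and Gnl3 lay between 0.08 and 0.44 there. The others, Npm1, Ltv1, Ddx21, Utp18 and Rrs1, lay between -0.03 and -0.58. Wdr12 was low in all 3 arrays, at -0.96 in LZ-low, -0.80 in DZ-low and -1.05 in DZ-high cells, and so was Nolc1, at -1.03, -0.90 and -0.73. Nop16, at -1.15, and Wdr12 were the 2 genes (4.26%) lower by at least 1 in DZ-high replicate 4, where 1.36% of all genes were. Its neutrophil markers were higher by at least 1 in 3 of 11 cases. Cycling genes were low in both low-affinity arrays as well, with 10 of 29 lower by at least 1 in LZ-low replicate 3 and 6 of 29 in DZ-low replicate 3. No cytosolic ribosomal protein gene was lower by that much in either array, of 55 measured.

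**Figure D5:**
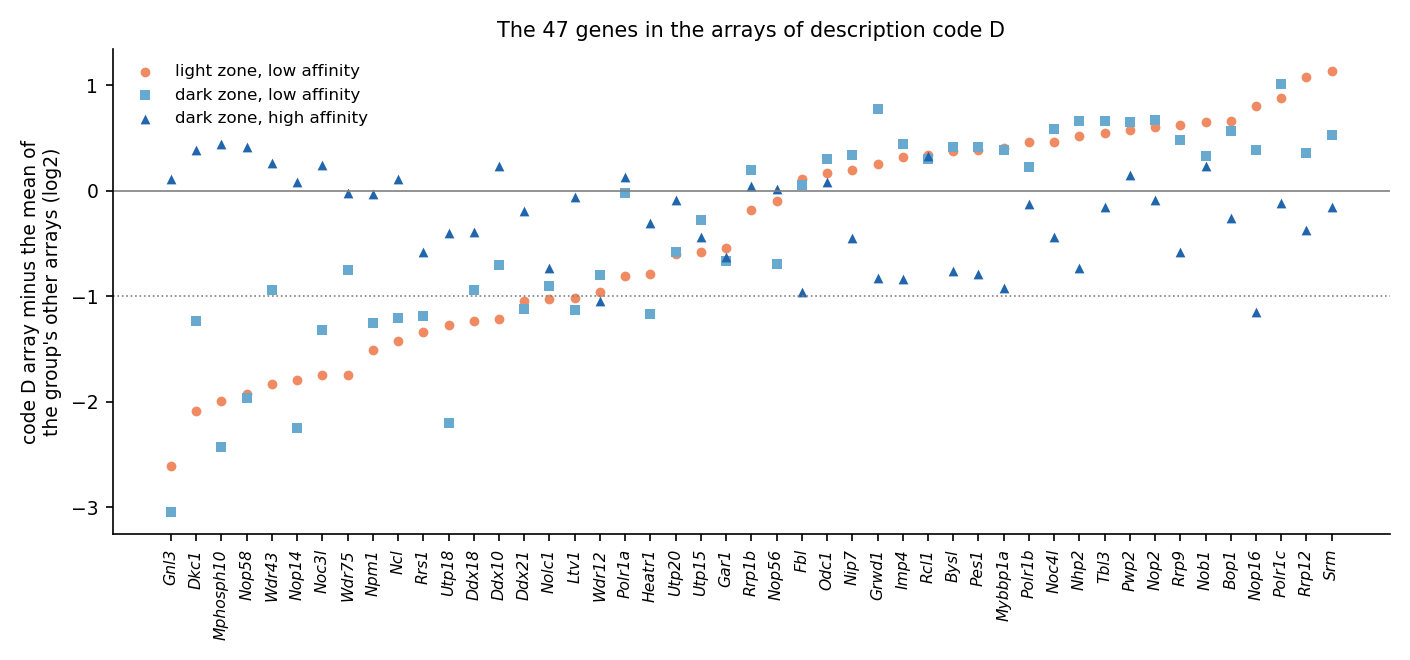
Log2 difference (vertical axis) between the array of description code D and the mean of its group's other arrays, for each of 47 genes (horizontal axis, ordered by the LZ-low difference), in LZ-low, DZ-low and DZ-high cells. The dotted line marks a difference of -1, and Gnl3 lies at -2.61 and -3.05 in the low-affinity groups and at 0.11 in DZ-high.

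The wider pathway was described through lists of further genes. Of 113 other ribosome assembly factors, 87 were above 0 between LZ-high and LZ-low cells, with a median of 0.21, and 72 between DZ-high and DZ-low cells, with a median of 0.07. Between zones 52 of 113 were above 0, with a median of -0.01. These were, without code D, 83, with a median of 0.14, 45, with a median of -0.05, and 59, with a median of 0.01. In limma 0 of them passed in any of these comparisons. Pno1, an RNA-binding factor of small-subunit maturation, was 0.91 ± 0.23 higher in LZ-high than in LZ-low cells, and Urb2, a nucleolar factor of large-subunit assembly known from yeast, 0.52 ± 0.15 higher. In the dark zone Utp25 was 0.28 ± 0.10 and Cd3eap, a subunit of RNA polymerase I, 0.36 ± 0.19 higher in DZ-high cells (0.18 without code D). Between zones Polr1d, a further polymerase subunit, was at -0.22 ± 0.08 and Nle1, a large-subunit factor, at 0.33 ± 0.13. Within the light zone the pairs of codes A, B and C had 85, 98 and 51 of 113 higher in LZ-high cells.

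Genes of the ribosomal proteins themselves differed little between the groups. Of 79 listed, 55 were measured, and their mean level lay between 11.91 and 12.16 in all 15 arrays. The median difference was -0.01 between LZ-high and LZ-low cells, with 26 of 55 above 0, -0.04 between DZ-high and DZ-low cells, with 17 of 55, and 0.0074 between zones, with 29 of 55. They were, without code D, -0.02, -0.04 and 0.0043, with 25, 10 and 32 of 55 above 0. The lowest p belonged to Rps15a, at 0.18 ± 0.14, and Rpl14, at 0.32 ± 0.29 (0.19 without code D), in the light zone, and to Rpl13, at -0.20 ± 0.13, and Rpl29, at -0.12 ± 0.11, in the dark zone. Between zones they were Rpl14, at -0.35 ± 0.20, and Rpl29, at -0.11 ± 0.08. Other polyamine genes differed in both directions. Of 9 measured, 4 were above 0 between LZ-high and LZ-low cells, with a median of -0.07, and 2 between DZ-high and DZ-low cells, with the same rounded median, or 4 and 5 without code D. Oaz2, which encodes an antizyme that directs ornithine decarboxylase to degradation, was at -0.37 ± 0.20 and at -0.22 ± 0.18. Azin1, an inhibitor of antizymes, was at 0.37 ± 0.26 in the dark zone, and Smox, a spermine oxidase, at -0.30 ± 0.25 in the light zone (-0.06 without code D). Between zones Sat1, which acetylates polyamines, was at -0.45 ± 0.24 and Dhps, which uses spermidine to modify a translation factor, at 0.20 ± 0.16. None of these passed.

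Myc had levels of 9.09, 8.88 and 8.0 in LZ-high arrays, against 8.37, 8.19, 8.30 and 8.74 in LZ-low arrays. In DZ-high arrays it had 7.33, 8.14, 8.55 and 7.74, against 7.81, 7.12, 7.73 and 8.04 in DZ-low arrays. Levels were higher in LZ cells in 6 of 7 pairs, by 0.72 ± 0.21 over both affinities, a 1.65-fold difference that did not pass in limma (unadjusted p = 0.0043, adjusted p = 0.422, or 0.376 with the replicate block). Every LZ-low array lay above every DZ-low array. Between LZ-high and LZ-low cells the Myc arrays overlapped, and the LZ-high array of code C was the lowest of the light zone. Of the 11 genes of the MYC network, 3 were above 0 between LZ-high and LZ-low cells and 4 between DZ-high and DZ-low cells, or 4 and 5 without code D. Mxd4 and Mnt, which encode repressors that share the partner MAX with MYC, were at -0.93 ± 0.42 and -0.24 ± 0.12 in the light zone (Mnt -0.15 without code D). Between DZ-high and DZ-low cells Mnt was at -0.22 ± 0.12 and Max at -0.10 ± 0.09. Mlx was at -0.31 ± 0.19 between zones.

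Cycling genes differed in the same direction as ribosome biogenesis genes for affinity, and in the opposite direction between zones. Between LZ-high and LZ-low cells 28 of 29 were above 0, with a median of 0.66, and between DZ-high and DZ-low cells 25 of 29, with a median of 0.17. These were, without code D, 29, with a median of 0.42, and 20, with a median of 0.05. Pairs of codes A, B and C had 28, 28 and 24 of 29 higher in LZ-high than in LZ-low cells, and pairs of codes A to D had 13, 29, 20 and 16 higher in DZ-high than in DZ-low cells. Between zones 8 of 29 were above 0, with a median of -0.28, or 8 and -0.27 without code D. In the light zone Tyms, a thymidylate synthase, was 0.85 ± 0.21 higher and Bub1b, a mitotic checkpoint kinase, 0.85 ± 0.22 higher in LZ-high cells, and in the dark zone the helicase subunits Mcm4 and Mcm7 were 0.56 ± 0.27 and 0.52 ± 0.27 higher in DZ-high cells (Mcm4 0.33 without code D). None of these passed. Between zones Cdc20, an activator of the anaphase complex, was at -0.81 ± 0.17 (adjusted p = 0.124) and Cenpa, the centromeric histone, at -0.75 ± 0.17 (adjusted p = 0.147). With the replicate block these had adjusted p of 0.0274 and 0.0172 in limma, and 5 of 29 cycling genes passed. These calls rest on merging the forms of code B. With the code as written the adjusted p were 0.0498 and 0.0594, and 2 of 29 passed. How much of the affinity difference of the ribosome biogenesis genes goes with the share of dividing cells was not tested.

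Promoters were searched for the E-box CACGTG, the preferred site of MYC with its partner MAX. Of the 47 genes, 40 had a window of 300 bases, 250 before the transcription start and 50 after it, in RefSeq sequence of GRCm38.p6. The search covered both strands, on which this palindrome reads the same. CACGTG was found for 9 of 40 genes (22.5%), against 2187 of 27025 genes with a window (8.09%). They were Imp4, Nop2, Grwd1, Ltv1, Utp20, Pes1, Mybbp1a, Utp18 and Wdr43. The 27025 genes were not limited to the 19938 measured on the arrays. The related letters CACGCG, with CGCGTG on the other strand, were found for 13 of 40 (32.5%), against 10.5% of all. GGGCGG, the core of the GC box, with CCGCCC on the other strand, was found for 31 of 40 (77.5%), against 38.2%. Stretches of 6 genes, each of 30 bases, are shown to place the E-box relative to the start, in the gene's direction, with the E-box in capitals.
Imp4: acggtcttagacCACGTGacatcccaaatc
Nop2: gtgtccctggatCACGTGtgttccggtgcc
Utp18: gcgagcgccggtCACGTGgcttgcggcggc
Pes1: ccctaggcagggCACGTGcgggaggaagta
Wdr43: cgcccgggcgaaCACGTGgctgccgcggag
Ltv1: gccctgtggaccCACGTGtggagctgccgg
The stretches lie at chr1:34439696-34439725 (plus strand) for Imp4, chr6:125131811-125131840 (plus) for Nop2 and chr11:93885769-93885798 (minus) for Utp18. Pes1 lies at chr11:3963965-3963994 (plus), Wdr43 at chr17:71616220-71616249 (plus) and Ltv1 at chr10:13193092-13193121 (minus). In Imp4, Nop2 and Utp18 the first base of the E-box lies at positions -121, -60 and -20 relative to the start, and in Pes1, Wdr43 and Ltv1 at positions 3, 18 and 29. Between LZ-high and LZ-low cells the 9 genes with the E-box had a median of 0.54, with 8 above 0, and the 31 genes with a window but no E-box had a median of 0.45, with 26 above 0. Between DZ-high and DZ-low cells the medians were 0.06 and 0.17. A match describes the letters of the window and does not show binding.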

How the data were processed

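The authors deposited 1 table of log2 values from RMA (background correction, quantile normalization and one summary per probe set) with genome build mm8, per the submitters' processing notes. The software version is not given in the sources used here. RNA was amplified before hybridisation, per the labels' protocols, which adds spread, and RMA compresses differences of dim probe sets. Precision is limited by the number of arrays (array medians 5.67 to 5.86).

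Of 28853 probe sets, 21789 had 1 gene symbol in the platform annotation, and the brightest was kept per gene. Of the 47 genes, 4 had several. The highest correlation between arrays was 0.993, and none was counted as a repeat. Limma 3.58.1 (lmFit, eBayes) in R 4.3.3 fitted 4 group means over 19938 genes with 11 residual degrees of freedom, or 8 with the description code as a block, adjusting by Benjamini-Hochberg. Deviations from the group means were shared within a code (mean correlation 0.288 over 21 pairs of arrays, 16 above 0.1) and not between codes (-0.082). Genes named are 15 set members, then per comparison those with the lowest p, by role where many are given, and those with the widest and narrowest range. Genes with the highest and lowest level, also in that rule, are not named, as levels of different probe sets are not compared. The 10 non-overlapping and 5 non-overlapping genes, Gnl3 and Imp4 between zones, and those of the code D arrays, were chosen after their values were seen. Members and lists were chosen with earlier results of these data known. Steps were tested on simulated data. Figures used matplotlib 3.10.9.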

Additional observations from a re-analysis of the deposited data

Results flagged for a closer look

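For the 15 genes given in every array, the median deviation of the 47 genes, and the means of neutrophil, T cell, cycling and ribosomal protein genes, 60 groups of 4 arrays were searched for 1 array far from the other 3 (a gap over 0.829 of the group's range). Chance flags about 1 in 20 such groups, and 7 were found. In LZ-low cells, replicate 3 was far below the others for Ncl, at 9.74 against 11.12 to 11.22, for Npm1, at 9.57 against 11 to 11.18, and for Wdr43, at 8.81 against 10.59 to 10.68. In DZ-low cells, replicate 3 was far below for Ncl, at 10.08 against 11.19 to 11.36, and for Gnl3, at 5.54 against 8.35 to 8.76. These 5 lie in the low-affinity arrays of code D, where neutrophil markers averaged 9.29 and 7.98. Fbl was low in LZ-low replicate 2, at 11.03 against 11.30 to 11.34. Bop1 was high in DZ-high replicate 3, at 7.47 against 6.82 to 6.88.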

How the results depend on the processing

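Across 30 alternative settings, of which 15 left out 1 array each, 0 of the 47 genes passed in any of the 7 comparisons that a setting could fit. The replicate block kept that count at 0 and gave members' medians of 0.33 for affinity in the light zone and 0.13 in the dark zone. It changed no call of the 47 genes, and the consensus correlation of the code as a random block was 0.175. Over all settings the members' median lay between 0.30 and 0.50 for affinity in the light zone, between 0.0038 and 0.21 in the dark zone, and between 0.094 and 0.17 for zone over both affinities. The median for zone lay between 0.18 and 0.30 among high-affinity cells. The median for zone among low-affinity cells lay between -0.11 and 0.063. The interaction median lay between 0.10 and 0.40 when 1 array was left out. Over all genes, 31 were called between zones, and 18 to 37 leaving out 1 array. The code as a replicate block gave 90 with both forms of code B merged and 35 with the code as written, as a random block 78, the title number 83, array weights 108, a threshold of 0.1 gave 49, and the block without the low-affinity arrays of code D 136. Of the 60 single differences named for a low p, 6 changed sign in at least 1 setting, none of them past the threshold. Bop1 in the light zone was not among the 60. Polr1a for affinity in the light zone was -0.0050 with the replicate block, -0.0092 with the code as written as the block, and -0.15 without the low-affinity arrays of code D, without all arrays of code D, and without those arrays in the block fit, which was chosen after seeing the data. Leaving out 1 array it lay between -0.15 and 0.30. Polr1c in the same comparison was 0.074 with array weights, 0.022 and 0.029 with those blocks, 0.066 with the title number as the block, and 0.094 in the 3 fits without the arrays of code D. Leaving out 1 array it lay between -0.23 and 0.094. Mybbp1a there was 0.023 with the title number as the block and lay between -0.38 and 0.097 leaving out 1 array. In the dark zone Polr1c lay between -0.0099 and 0.39 and Mybbp1a between -0.24 and 0.29 leaving out 1 array, and Odc1 was 0.045 with the mean of all its probe sets. The cause of these was not tested.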
